A study of Mus musculus with 12 samples.

Results

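The inflammatory cytokine genes Il1a, Il1b, Tnf and Il6, the interleukin-1 antagonist gene Il1rn, the interleukin-1 receptor gene Il1r1 and the NF-kappaB feedback genes Nfkbia, Nfkbie, Nfkbiz and Tnfaip3 were followed in uterine cells treated with estradiol (E2). The 10 genes were chosen by name for their role in this pathway, with earlier results of these data known. A gene was represented by the probe set whose only gene symbol was that of the gene. Of the 10, 9 had 1 such probe set each, 9 of 23410 probe sets with a gene symbol and 9 of 19938 genes, and Il1r1 is not analysed here.

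The 4 groups of 3 arrays came from primary co-cultures of CD-1 mouse uterine cells, in which stromal cells grew on cover slips and epithelial sheets on inserts coated with matrigel, after isolation on day 4 of pseudopregnancy. They were epithelial cells with E2 (10 nM, 2 days), epithelial cells with vehicle (0.01% ethanol, 2 days), stromal cells with E2 and stromal cells with vehicle. All groups shared the co-culture with the other layer and a night without hormone in medium with 1% charcoal-stripped serum, and the labels give no genotype beyond the strain. Each layer was harvested and measured on its own, and whether arrays within a group stem from different mice or cultures is not stated, so p-values measure the spread between these arrays, which may be technical.

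Interleukin-1 and TNF are alarm cytokines whose receptors activate NF-kappaB, a family of transcription factors held in the cytoplasm by IkappaB proteins. NF-kappaB in turn switches on genes that end its own activity, among them those of IkappaB-alpha (Nfkbia), IkappaB-epsilon (Nfkbie) and the ubiquitin-editing enzyme of Tnfaip3, so the transcripts of these inhibitors are widely read as signs of the pathway's activity. In the uterus, macrophages, epithelium and stroma can all make these cytokines, and ovarian steroids are known to affect them.

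Promoter sequences of the members were searched because these genes are textbook targets of NF-kappaB, and those with a match are shown. RefSeq windows (GRCm38.p6) of 250 bases before to 50 after a transcription start were found for 8 of the 9 genes, 11 windows in all, with none for Nfkbiz. The kappaB consensus, the site that NF-kappaB binds, was searched on both strands and lay in 4 of the 11 windows, those of Nfkbia, Nfkbie, Il6 and 1 of the Tnfaip3 windows, and in 8.46% of all 32851 windows. The sequences are the 250 bases before the start, read 5′ to 3′, with the kappaB match in capitals.
Nfkbia, chr12:55492648-55492897, minus strand: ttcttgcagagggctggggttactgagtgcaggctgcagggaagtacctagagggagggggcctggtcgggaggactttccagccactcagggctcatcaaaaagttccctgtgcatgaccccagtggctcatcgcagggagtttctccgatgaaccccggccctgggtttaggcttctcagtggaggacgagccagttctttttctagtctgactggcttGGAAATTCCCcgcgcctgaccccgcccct
Nfkbie, chr17:45555450-45555699, plus strand: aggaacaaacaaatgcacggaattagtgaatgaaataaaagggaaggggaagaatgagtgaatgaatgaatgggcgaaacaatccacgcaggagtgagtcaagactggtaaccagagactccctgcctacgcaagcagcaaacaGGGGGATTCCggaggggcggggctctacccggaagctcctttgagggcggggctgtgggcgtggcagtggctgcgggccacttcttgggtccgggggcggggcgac
Tnfaip3, chr10:19015411-19015660, minus strand: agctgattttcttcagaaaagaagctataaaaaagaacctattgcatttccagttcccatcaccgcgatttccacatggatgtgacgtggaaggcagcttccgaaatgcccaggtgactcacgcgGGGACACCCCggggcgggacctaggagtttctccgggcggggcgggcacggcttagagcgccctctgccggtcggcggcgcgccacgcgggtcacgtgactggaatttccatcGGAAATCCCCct
Il6, chr5:30012864-30013113, plus strand: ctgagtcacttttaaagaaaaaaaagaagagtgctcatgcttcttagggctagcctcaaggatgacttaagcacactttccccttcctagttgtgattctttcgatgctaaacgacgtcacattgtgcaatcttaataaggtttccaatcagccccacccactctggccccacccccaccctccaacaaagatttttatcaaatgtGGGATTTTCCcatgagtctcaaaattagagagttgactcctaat

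The match began 29 bases before the start in Nfkbia, 106 in Nfkbie and 44 in Il6. Tnfaip3 had matches beginning 125 and 12 bases before it, the farther of them reading as the consensus on both strands. The AP-1 element TGANTCA lay in 5 of the 11 windows, those of Il1a, Il1rn, Il6, Nfkbie and Tnfaip3, and in 7.81% of all windows. In Il1a, where the fall under E2 in stroma was the largest of the 9 members, it began 12 bases before the start and is in capitals in the sequence that follows.
Il1a, chr2:129309973-129310222, minus strand: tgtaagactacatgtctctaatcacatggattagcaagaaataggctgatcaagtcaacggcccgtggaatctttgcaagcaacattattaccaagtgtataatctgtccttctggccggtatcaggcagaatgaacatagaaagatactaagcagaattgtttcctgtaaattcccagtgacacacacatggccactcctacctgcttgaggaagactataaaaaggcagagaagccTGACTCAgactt

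The estrogen response element, the palindrome that estrogen receptors bind, lay in 0 of the 11 windows and in 0.07% of all windows. A match is a stretch of letters, and binding was not measured.

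**Figure D1:**
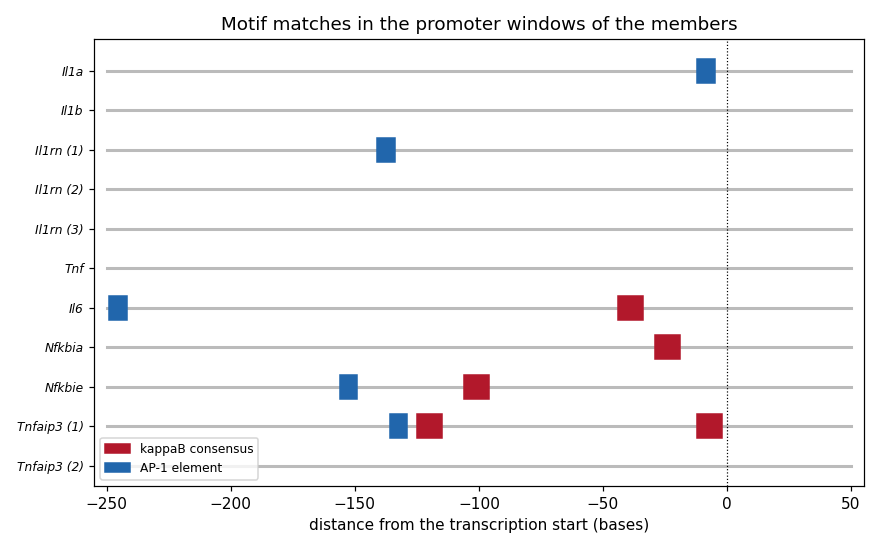
Matches to the kappaB consensus (red) and the AP-1 element (blue) in the 11 promoter windows of 8 members; the x axis is the distance from the transcription start in bases, and numbers in brackets tell apart several windows of a gene. Nfkbia, Nfkbie, Il6 and the first Tnfaip3 window hold a kappaB match, while AP-1 matches lie in 5 windows.

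All values below are deposited log2 RMA signals, on a log scale of base 2. A ± gives limma's standard error of the difference, or an SD where so marked. Every group has n = 3, folds are differences taken out of the log scale, and an adjusted p is limma's, Benjamini-Hochberg adjusted over all 23410 probe sets, with a threshold of 0.05. A level compares samples for 1 probe set, not 1 gene with another, and no measure of background was available. Under vehicle 16 of 16 epithelial markers were higher in epithelial than in stromal arrays, and 9 of 15 stromal markers were lower. These shares were 7.27% and 14.1% for all probe sets. Under E2 14 of the 16 were higher and 5 of the 15 lower, against 4.43% and 9.18%, and the stromal marker Twist1 was higher. The stromal marker mean was 10.05 in epithelium and 10.87 in stroma under vehicle, and 10.48 and 10.75 under E2. Under vehicle 4 of the 15 stromal markers were on the higher side in epithelium, so the epithelial arrays also carried stromal signal. In epithelium vehicle replicate 2 and E2 replicate 3 had the lowest mean correlation with the other 11 arrays (0.946 and 0.955), and are called the arrays that stood apart. E2 replicate 3 also had a macrophage and pan-leukocyte marker mean of 8.64, against 9.44 and 9.56 in the other E2 arrays of that layer. By marker means it was vehicle replicate 3 that lay farthest from its group, with an epithelial mean of 9.51 against 10.59 and 11.11 and a stromal mean of 10.52 against 9.92 and 9.70. Results were therefore also computed without vehicle replicate 2 and E2 replicate 3, and without vehicle replicate 3 and E2 replicate 3. In these bulk samples, fewer cells of a type and less RNA per cell cannot be told apart.

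In the stromal layer E2 was compared with vehicle to ask which of these genes responded to it. All 9 members had their 3 E2 arrays below their 3 vehicle arrays there, as did 14.6% of all probe sets, and 6 of the 9 passed the test as lower, against 1.98% of all probe sets (3.5% in either direction). The 6 were Il1a, Il1b, Tnf, Nfkbia, Nfkbie and Nfkbiz. The median difference of the 9 was -1.17, while that of all probe sets was 0.03. In the epithelial layer 4 of the 9 members had all E2 arrays below all vehicle arrays, as did 8.04% of all probe sets, and 0 had them all above, as 6.95% did. There 2 passed as lower, Tnf and Nfkbie, against 1.12% of all probe sets (2.9% in either direction), and the median of the 9 was -0.45, against 0.03 for all probe sets.

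**Figure D2:**
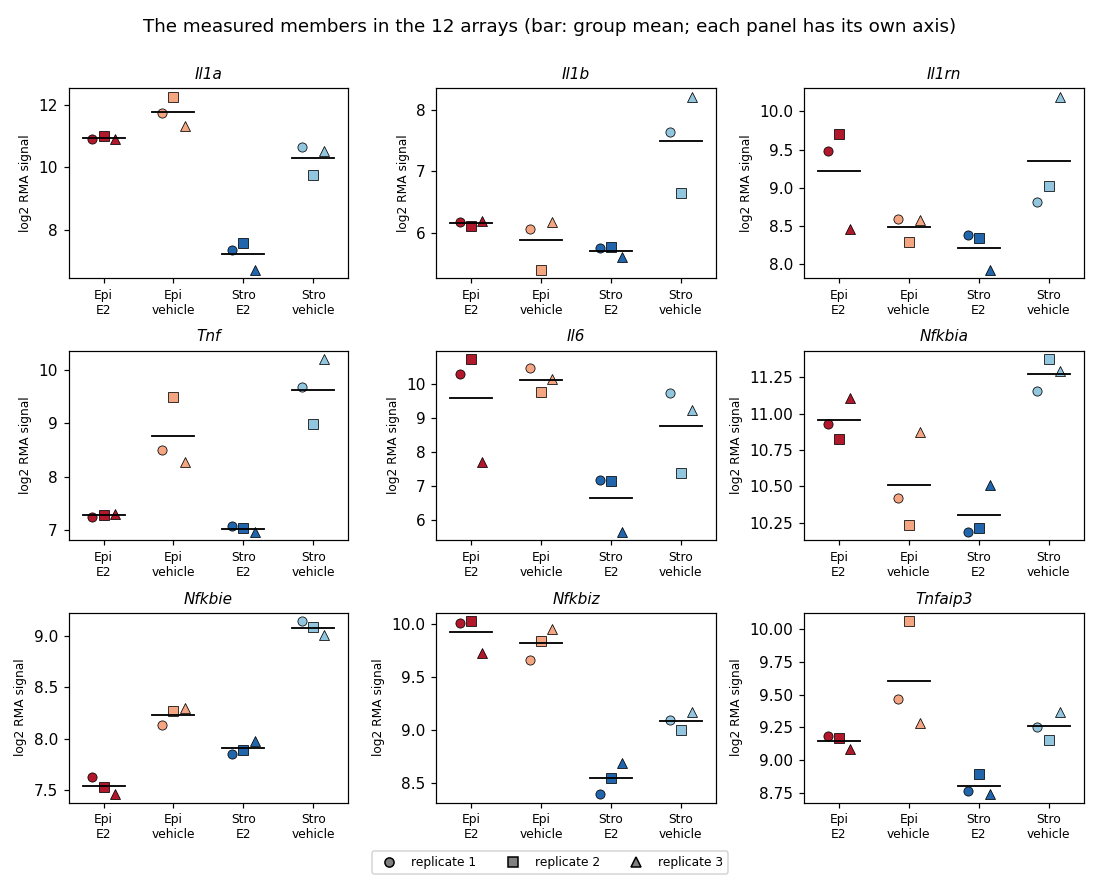
Deposited log2 RMA signal of the 9 measured members in the 12 arrays, with 1 panel and 1 axis per gene; points are arrays (symbols give the replicate) and bars are group means. In stroma the E2 arrays lie below the vehicle arrays in every panel, while in epithelium they do so for Il1a, Tnf, Nfkbie and Tnfaip3.

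Among the agonists, Il1a encodes interleukin-1 alpha, an alarmin that dying or stressed cells release. In stroma it measured 7.34, 7.57 and 6.72 with E2, against 10.64, 9.77 and 10.53 with vehicle. The groups were far apart, and the fall was 8.57-fold (-3.10 ± 0.28, adjusted p = 0.000153). In epithelium Il1a measured 10.91, 11.00 and 10.91 with E2, against 11.75, 12.25 and 11.32 with vehicle. The E2 arrays again lay below, but the difference, -0.83 ± 0.28, missed the threshold (adjusted p = 0.154, 95% interval -1.45 to -0.22). The vehicle arrays spread more (SD 0.47) than the E2 arrays (SD 0.05).

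Il1b encodes interleukin-1 beta, the form that the inflammasome cuts and releases, chiefly in myeloid cells. Its stromal values were 5.76, 5.78 and 5.61 with E2, against 7.64, 6.65 and 8.21 with vehicle. The vehicle arrays were dispersed, while the E2 arrays lay close together, and the gene fell 3.44-fold (-1.78 ± 0.32, adjusted p = 0.00915). In epithelium Il1b gave 6.17, 6.11 and 6.20 with E2 and 6.06, 5.40 and 6.18 with vehicle. These groups overlapped, and the difference of 0.28 ± 0.32 did not pass (adjusted p = 0.771).

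Il1rn encodes the interleukin-1 receptor antagonist, which occupies the receptor without signalling. In stroma it measured 8.38, 8.35 and 7.93 with E2, against 8.82, 9.03 and 10.19 with vehicle. The groups did not overlap, but vehicle replicate 3 stood well above the other two and the difference of -1.13 ± 0.36 did not pass (adjusted p = 0.150). In epithelium it measured 9.48, 9.71 and 8.46 with E2, against 8.59, 8.29 and 8.58 with vehicle, a difference of 0.73 ± 0.36 (adjusted p = 0.357). E2 replicates 1 and 2 were above all vehicle arrays, while E2 replicate 3, the array with the lower macrophage and pan-leukocyte marker mean, lay among them. Set side by side, the agonist Il1a and the antagonist Il1rn differed by -3.10 and -1.13 between E2 and vehicle in stroma, and by -0.83 and 0.73 in epithelium. The difference between these genes was not tested.

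Tnf encodes tumour necrosis factor, a macrophage cytokine that activates NF-kappaB through its own receptors. In stroma Tnf measured 7.07, 7.05 and 6.97 with E2, against 9.66, 8.98 and 10.19 with vehicle. It fell 5.99-fold (-2.58 ± 0.31, adjusted p = 0.000971), and the E2 arrays lay close together. In epithelium the values were 7.24, 7.29 and 7.30 with E2, against 8.50, 9.49 and 8.27 with vehicle. It fell 2.78-fold there (-1.47 ± 0.31, adjusted p = 0.0306), with no overlap of the groups. That call was lost without epithelial vehicle replicate 1, epithelial E2 replicate 1 or 2, stromal vehicle replicate 1, or any of the 3 stromal E2 arrays, at differences from -1.60 to -1.46 and adjusted p from 0.0504 to 0.118. The epithelial call was also lost when the 6 epithelial arrays were fitted alone (adjusted p = 0.135). It was lost too with replicate number as a block, across all arrays (adjusted p = 0.0573) or within each layer (adjusted p = 0.0543). In both layers the 3 E2 arrays were tight and the vehicle arrays spread. The SD was 0.03 with E2 and 0.65 with vehicle in epithelium, and 0.06 with E2 against 0.61 with vehicle in stroma.

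Il6 encodes interleukin-6, a cytokine induced by interleukin-1 and TNF. In stroma it measured 7.17, 7.14 and 5.65 with E2, against 9.73, 7.37 and 9.21 with vehicle. The highest E2 array lay just under vehicle replicate 2, and the difference of -2.12 ± 0.78 did not pass (adjusted p = 0.230). In epithelium Il6 measured 10.29, 10.72 and 7.69 with E2, against 10.47, 9.76 and 10.14 with vehicle (-0.55 ± 0.78, adjusted p = 0.823). E2 replicate 3 was far below every other epithelial array, and without it the difference was 0.39 (adjusted p = 0.826).

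Of the feedback genes, Nfkbia encodes IkappaB-alpha, the inhibitor that is destroyed and made again with each pulse of NF-kappaB activity. In stroma it measured 10.19, 10.21 and 10.51 with E2, against 11.15, 11.37 and 11.29 with vehicle. It fell 1.96-fold (-0.97 ± 0.16, adjusted p = 0.00543), with a clear gap between the groups. In epithelium the values were 10.93, 10.83 and 11.11 with E2 and 10.42, 10.24 and 10.87 with vehicle. Here the E2 arrays were on average higher, by 0.44 ± 0.16, which did not pass (adjusted p = 0.174), and vehicle replicate 3 lay among them. Without that array the difference was 0.62 and passed (adjusted p = 0.0190).

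Nfkbie encodes IkappaB-epsilon, another inhibitor that NF-kappaB induces. Stromal arrays gave 7.85, 7.89 and 7.98 with E2, against 9.14, 9.08 and 9.01 with vehicle. It fell 2.25-fold (-1.17 ± 0.08, adjusted p = 3.85e-05), and its SDs of 0.07 in each stromal group were among the smallest of the members. In epithelium Nfkbie measured 7.63, 7.53 and 7.46 with E2, against 8.13, 8.27 and 8.30 with vehicle. It fell 1.62-fold (-0.69 ± 0.08, adjusted p = 0.00176), and this call held in each of 12 fits that left out 1 array, though not when the 6 epithelial arrays were fitted alone (adjusted p = 0.0801).

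Nfkbiz encodes IkappaB-zeta, a nuclear member of the family that is needed for some later NF-kappaB target genes, Il6 among them. In stroma it measured 8.40, 8.55 and 8.69 with E2, against 9.10, 9.004 and 9.17 with vehicle. It fell 1.46-fold (-0.54 ± 0.12, adjusted p = 0.0247). The stromal call was lost without stromal vehicle replicate 1 or 3 or stromal E2 replicate 1 or 2, at differences from -0.54 to -0.47 and adjusted p from 0.0942 to 0.126. In epithelium it measured 10.01, 10.02 and 9.73 with E2 and 9.66, 9.84 and 9.95 with vehicle, which overlapped (0.10 ± 0.12, adjusted p = 0.770).

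Tnfaip3 encodes the enzyme that removes activating ubiquitin chains from the receptor complexes and so limits signalling by interleukin-1 and TNF. In stroma it measured 8.77, 8.89 and 8.74 with E2, against 9.25, 9.15 and 9.37 with vehicle. In epithelium it measured 9.19, 9.17 and 9.09 with E2, against 9.47, 10.06 and 9.28 with vehicle. The groups did not overlap in either layer, and the differences were nearly equal, -0.46 ± 0.16 in stroma (adjusted p = 0.204) and -0.45 ± 0.16 in epithelium (adjusted p = 0.177). Neither passed, but the stromal one passed without epithelial vehicle replicate 2 (adjusted p = 0.0106) and when the 6 stromal arrays were fitted alone (adjusted p = 0.0110). The epithelial one passed without epithelial vehicle replicate 3 (-0.61, adjusted p = 0.0369).

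**Figure D3:**
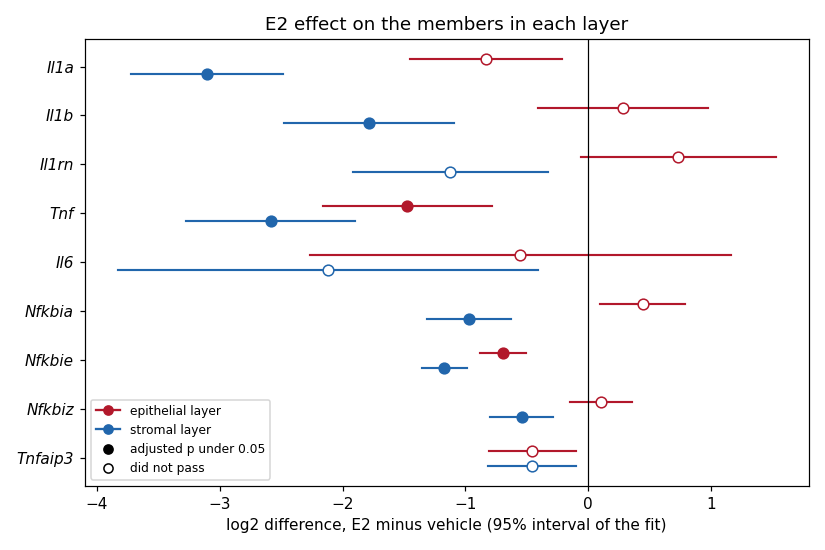
Log2 difference between E2 and vehicle for the 9 members in the epithelial (red) and stromal (blue) layers, with the 95% interval of the fit; filled points have an adjusted p under 0.05. The 6 filled stromal points all lie below 0, and Tnf and Nfkbie are the filled epithelial points.

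Whether the E2 effect differed between the layers was tested as the epithelial difference minus the stromal difference. Its sign was positive for all 9 members, which means that the stromal difference was the more negative one. Of all probe sets 51.3% had a positive value. One-sided signs were also seen in cell type markers. The value was positive for 14 of 14 macrophage and pan-leukocyte markers and 15 of 15 stromal markers. It was positive for 0 of 16 epithelial and 1 of 6 smooth muscle markers. The part of cell makeup in the signs of the members was not tested. Of the 9 members 2 passed, Il1a (2.27 ± 0.40, adjusted p = 0.0249) and Nfkbia (1.41 ± 0.22, adjusted p = 0.0146), against 0.641% of all probe sets passing in that direction, 0.269% in the other and 0.91% in either. For Tnfaip3 the difference was 0.00 ± 0.23 and its sign turned under 2 scalings of the arrays. The Il1a call was lost without epithelial vehicle replicate 1, epithelial E2 replicate 1 or 2, stromal vehicle replicate 1 or 3, or stromal E2 replicate 1 or 3, at values from 2.02 to 2.33 and adjusted p from 0.0549 to 0.0802. The Nfkbia call was lost without stromal E2 replicate 1 (1.35, adjusted p = 0.0532) or replicate 2 (1.37, adjusted p = 0.0561). Without both epithelial arrays that stood apart 7 of the 9 members passed, beside 2664 of all 23410 probe sets, against 213 in the main fit. Without epithelial vehicle replicate 3 and E2 replicate 3 it was 6, beside 1506 of all probe sets. Both settings were chosen after the data were seen. For Tnf (1.11 ± 0.44, adjusted p = 0.377), which fell in both layers, and Nfkbie (0.48 ± 0.12, adjusted p = 0.104) the layers were not shown to differ. Il1b gave 2.06 ± 0.45 (adjusted p = 0.0614) and Nfkbiz 0.65 ± 0.16 (adjusted p = 0.111).

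The layers themselves were compared without and with E2, as epithelium minus stroma. Under vehicle 5 of the 9 members passed, against 21.4% of all probe sets. Il1a (1.46 ± 0.28, adjusted p = 0.00369) and Nfkbiz (0.73 ± 0.12, adjusted p = 0.00117) were higher in epithelium, as 7.27% of all probe sets were. Il1b (-1.62 ± 0.32, adjusted p = 0.00391), Nfkbia (-0.76 ± 0.16, adjusted p = 0.00524) and Nfkbie (-0.84 ± 0.08, adjusted p = 6.14e-05) were lower there, as 14.1% were. Tnf averaged 8.75 ± 0.65 in epithelium and 9.61 ± 0.61 in stroma (SD), and the difference of -0.86 ± 0.31 missed the threshold (adjusted p = 0.0748). It passed without epithelial vehicle replicate 2 (-1.23, adjusted p = 0.00593) or stromal vehicle replicate 2 (-1.18, adjusted p = 0.0241), and that of Tnfaip3 (0.34) without epithelial vehicle replicate 3 (0.50, adjusted p = 0.0397). Il6 was 1.35 ± 0.78 higher in epithelium (adjusted p = 0.251). It passed (adjusted p = 0.0416) in a limma fit that paired the layers by replicate number under both treatments. The other tests between the layers given here held no pairing. Under E2 the deviations of same-numbered arrays correlated at -0.313, 0.229 and -0.063 between the layers. Among all probe sets 34.1% of the calls under vehicle were higher in epithelium, a share that was 17.5% with each array centred on its median and 44.3% with each centred on its 75th percentile. Median centring moved the median of all probe sets by -0.14.

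Under E2 all 9 members separated the layers. In 8 of them all epithelial arrays lay above all stromal arrays, as in 17.6% of all probe sets, and in Nfkbie they lay below, as in 21.3%. The 5 that passed, against 13.6% of all probe sets, were Il1a, Il6, Nfkbia and Nfkbiz on the higher side, where 4.43% of all probe sets lay, and Nfkbie on the lower, where 9.18% lay. Il1a averaged 10.94 ± 0.05 in epithelium and 7.21 ± 0.44 in stroma (SD), 13.2-fold higher (3.73 ± 0.28, adjusted p = 1.38e-05). Il6 was 7.56-fold higher in epithelium (2.92 ± 0.78, adjusted p = 0.0287), but this was lost without epithelial E2 replicate 1 or 2 or any stromal E2 array, at adjusted p from 0.0545 to 0.118 and values from 2.34 to 3.18. Nfkbiz was 2.59-fold higher (1.37 ± 0.12, adjusted p = 2.6e-05). Nfkbia, lower in epithelium under vehicle, was higher there under E2 (0.65 ± 0.16, adjusted p = 0.0174), a call lost without epithelial E2 replicate 3 (0.57, adjusted p = 0.0613) or stromal E2 replicate 1 (0.59, adjusted p = 0.0741) or 2 (0.61, adjusted p = 0.0749). Nfkbie was lower in epithelium (-0.37 ± 0.08, adjusted p = 0.0130), and this was lost without stromal E2 replicate 3 (-0.33, adjusted p = 0.0608). Of the 4 that did not pass, Il1rn (1.00 ± 0.36, adjusted p = 0.0996) did so without epithelial E2 replicate 3 (1.37, adjusted p = 0.0244) or stromal vehicle replicate 3 (adjusted p = 0.0409), and Tnfaip3 (0.35 ± 0.16, adjusted p = 0.194) without epithelial vehicle replicate 2 (adjusted p = 0.0172). Under E2 32.5% of all calls were higher in epithelium, and 18.9% with median centring, which moved the median of all probe sets by -0.12.

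Ordered by group mean, Il1a was highest in epithelium with vehicle, then in epithelium with E2, then in stroma with vehicle, and lowest in stroma with E2. The first pair in that order did not differ past the threshold. Nfkbie ran from stromal vehicle through epithelial vehicle and stromal E2 to epithelial E2, the middle pair, 8.23 ± 0.09 and 7.91 ± 0.07 (SD), being no comparison of the design. Tnf ran from stromal vehicle through epithelial vehicle to both E2 groups, 7.28 ± 0.03 in epithelium and 7.03 ± 0.06 in stroma (SD), which did not differ past the threshold (adjusted p = 0.651). Across the 12 arrays Tnf and Nfkbie had a Pearson r of 0.856, Il1a and Nfkbiz 0.873, Il1a and Il6 0.855, and Nfkbie and Nfkbiz -0.26. These values describe 12 arrays that share 4 groups and carry no test.

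The genes outside the members whose pattern over the 12 arrays was most like Tnf were Il23a, the interleukin-23 subunit (Pearson r = 0.971), Ermp1 (0.962) and Olfm2 (0.955). Il23a measured 7.55, 7.40 and 6.99 with E2 in stroma, against 9.87, 8.88 and 9.77 with vehicle. Most like Il1a were Plat, the tissue plasminogen activator (0.987), the MAP kinase phosphatase Dusp4 (0.981) and Lacc1 (0.964). For Nfkbie they were the secretory kinase Fam20c (0.984), the guidance protein gene Ntn1 (0.976) and the serotonin receptor Htr2a (0.971). These 9 genes were chosen for their likeness to members that fell with E2 in stroma, so their own stromal differences, from -0.44 for Lacc1 to -2.20 for Il23a, are a description fixed by that choice.

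The other genes of the pathway were counted from lists written from general knowledge, but with earlier results of these data known. Of the listed genes 96 had a probe set. Their counts beside those of all probe sets are therefore a description. In stroma 20 of the 96 fell and 1 rose, against 1.98% and 1.52% of all probe sets. In epithelium 4 fell and 1 rose, against 1.12% and 1.77%. Between the layers 17 of the 96 were higher and 24 lower in epithelium than in stroma under vehicle, against 7.27% and 14.1% of all probe sets. Under E2 15 were higher and 8 lower, against 4.43% and 9.18%. Leaving out 1 array moved these counts by over 1.5 times for E2 in stroma, where 13 passed without stromal E2 replicate 1, and for E2 in epithelium, where 15 passed without epithelial vehicle replicate 3, 9 without epithelial E2 replicate 3 and 3 without epithelial vehicle replicate 1 or epithelial E2 replicate 1 or 2. Ligands, receptors and signalling parts of the interleukin-1 family had 3 of 12 falling in stroma. In epithelium 0 of 12 passed by limma, and 3 had an unadjusted p under 0.05. The 3 in stroma were Il1rap, the accessory chain that interleukin-1 receptors need to signal (1.88-fold, -0.91 ± 0.17, adjusted p = 0.0132), the interleukin-36 receptor Il1rl2 (-0.83 ± 0.17) and the inflammasome sensor Nlrp3 (-0.58 ± 0.13). The call of Il1rl2 was lost without any 1 of the 6 stromal arrays, that of Nlrp3 without any 1 of 7 arrays (adjusted p up to 0.159), and that of Il1rap without stromal vehicle replicate 3 or stromal E2 replicate 1 or 3 (adjusted p up to 0.0650). Their list medians were -0.09 in stroma and -0.15 in epithelium.

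Among 12 TNF receptor genes and adaptors 2 fell in stroma, against 1.98% of all probe sets, a share that also stands beside the lists that follow. They were the apoptosis inhibitor Birc3 (2.16-fold, -1.11 ± 0.14, adjusted p = 0.00115) and Adam17, the protease that sheds TNF (-0.51 ± 0.09, adjusted p = 0.0116). In 11 of the 12 all E2 arrays lay below all vehicle arrays, as in 14.6% of all probe sets, and the list median was -0.26. The receptor adaptors and kinases had 1 of 12 falling, the kinase Irak2 (1.76-fold, -0.81 ± 0.12, adjusted p = 0.00309), with a median of -0.02. Of 9 NF-kappaB subunits and kinases Nfkb2 (1.68-fold, -0.75 ± 0.09, adjusted p = 0.000697) and Relb (-0.47 ± 0.09, adjusted p = 0.0101) fell, the partners of the non-canonical dimer, with a median of -0.26. The Adam17 call was lost without stromal vehicle replicate 3 or stromal E2 replicate 1 or 2, and that of Relb without stromal E2 replicate 2 (adjusted p = 0.0524). Of 16 further inhibitors the RNase gene Zc3h12a, which degrades Il6 transcripts (-0.93 ± 0.12, adjusted p = 0.00139), and Bcl3, a nuclear IkappaB protein (-0.85 ± 0.12, adjusted p = 0.00195), fell, and the median was -0.09. Bcl3 was also higher in the test between layers (0.82 ± 0.16, adjusted p = 0.0482), a call lost in 9 of 12 fits that left out 1 array. In epithelium 0 genes of these 4 lists passed by limma, and in the order given 2, 3, 4 and 5 had an unadjusted p under 0.05.

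Of 23 genes known as NF-kappaB targets, 9 fell in stroma and 4 in epithelium, against 1.98% and 1.12% of all probe sets. In either layer 0 rose, against 1.52% in stroma and 1.77% in epithelium. The list medians were -0.60 and -0.38, against 0.03 in each layer for all probe sets. The 4 with the smallest p in stroma were the metalloreductase Steap4 (22.4-fold), the neutrophil chemokines Cxcl2 (12.4-fold) and Cxcl5 (6.13-fold) and the gelatinase Mmp9 (4.95-fold). Steap4 (4.09 ± 0.50, adjusted p = 0.00527) and Cxcl2 (3.43 ± 0.47, adjusted p = 0.00857) differed between the layers in the same direction as Il1a and Nfkbia. In epithelium Mmp9 (3.17-fold), Cxcl5 (3.90-fold), Csf2, a colony-stimulating factor (4.04-fold), and Tnfaip2 (1.79-fold) fell. The Csf2 call was lost without epithelial vehicle replicate 1 or epithelial E2 replicate 1 or 2, and that of Tnfaip2 without epithelial vehicle replicate 1 (adjusted p = 0.0501). Of 12 genes of interleukin-6 signalling, the receptor Il6ra rose in both layers, 1.97-fold in stroma (0.98 ± 0.12, adjusted p = 0.000809) and 1.45-fold in epithelium (0.54 ± 0.12, adjusted p = 0.0323). The epithelial call of Il6ra was lost in 7 of 12 fits that left out 1 array. The kinase gene Jak2 fell in stroma (-0.44 ± 0.08, adjusted p = 0.00919), a call lost without stromal vehicle replicate 3 or stromal E2 replicate 1.

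**Figure D4:**
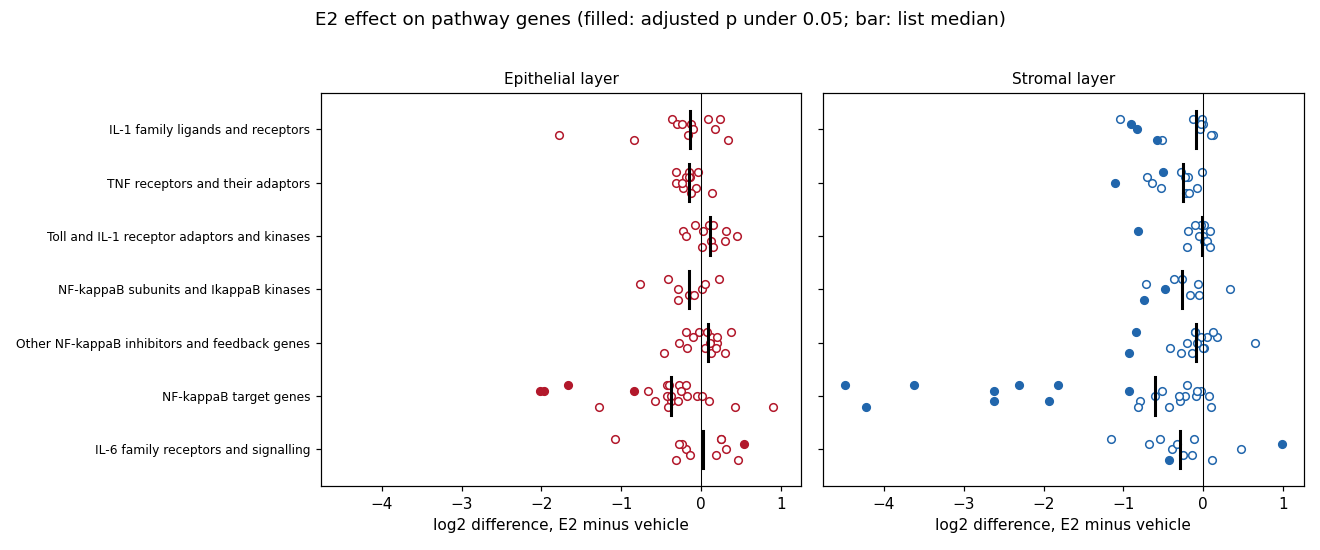
Log2 difference between E2 and vehicle for 96 pathway genes in 7 lists, with the epithelial layer on the left and the stromal layer on the right; points are genes, filled where the adjusted p was under 0.05, and bars are list medians. The target list reaches farthest to the left in both panels, with 9 filled genes in stroma and 4 in epithelium, and Il6ra is the filled gene to the right of 0.

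Markers of other cells were measured in the same arrays. In stroma the mean of 14 macrophage and pan-leukocyte markers was 9.53, 9.52 and 9.31 with E2, against 9.75, 9.63 and 9.79 with vehicle, and these groups did not overlap. Of the 14 markers 10 were on the lower side with E2, as were 42.4% of all probe sets, 0 passed by limma, where 3 had an unadjusted p under 0.05, and the median was -0.41. The pan-leukocyte gene Ptprc averaged 7.25 with E2 and 7.84 with vehicle, whereas Csf1r, the macrophage growth factor receptor, averaged 9.84 with E2 and 9.35 with vehicle. In epithelium the same mean was 9.44, 9.56 and 8.64 with E2, against 8.81, 8.45 and 8.82 with vehicle, 13 of 14 markers were on the higher side, as were 57.8% of all probe sets, and Csf1r rose (1.01 ± 0.14, adjusted p = 0.00317), while Tnf fell in these arrays. The part of macrophages in the falls of Il1b, Tnf and the other members was not tested.

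Means of 6 neutrophil markers lay between 5.54 and 6.09 and those of 7 lymphoid and NK markers between 4.81 and 5.19 in all 12 arrays. Epithelial marker means were 9.37, 9.56 and 9.64 with E2, against 10.59, 11.11 and 9.51 with vehicle, in the epithelial arrays. Of 16 epithelial markers 15 were on the lower side with E2 there, as were 42.2% of all probe sets (median -0.81), and 2 passed. Of 15 stromal markers 11 were on the higher side, as were 57.8% of all probe sets (median 0.38), and 1 passed. In the 3 epithelial vehicle arrays Il1a, Tnf and Tnfaip3 had the same order as the epithelial marker mean, highest in replicate 2 and lowest in replicate 3. Il1b and Nfkbia had the reverse order. Nfkbie and Nfkbiz were highest in replicate 3 and lowest in replicate 1, and Il1rn and Il6 highest in replicate 1 and lowest in replicate 2. The part of cell makeup in the epithelial differences was not tested. Stromal vehicle replicate 2 was the lowest array of its group in 6 of the 9 members, Il1a, Il1b, Tnf, Il6, Nfkbiz and Tnfaip3. Without it the stromal differences of Il1b and Tnf were -2.21 and -2.90, and both passed. Stromal E2 replicate 3 was also the lowest of its group in 6, Il1a, Il1b, Il1rn, Tnf, Il6 and Tnfaip3. With 1 array left out the stromal difference ran from -2.21 to -1.43 for Il1b and from -2.90 to -2.29 for Tnf. Both passed in 12 of 12 such fits.

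**Figure D5:**
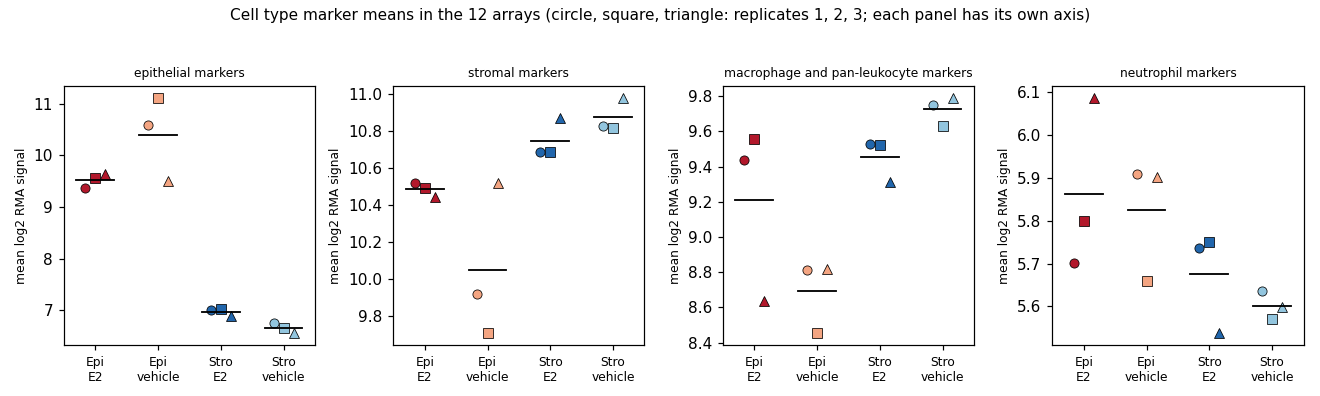
Mean log2 RMA signal of epithelial, stromal, macrophage and pan-leukocyte, and neutrophil markers in the 12 arrays, each panel with its own axis; points are arrays and bars are group means. Macrophage and pan-leukocyte means are lower with E2 in stroma and higher in 2 of 3 E2 arrays in epithelium, and the epithelial marker mean of the E2 arrays lies between 9.37 and 9.64.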

How the data were processed

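RNA of each layer was hybridised to Affymetrix Mouse Gene 1.0 ST arrays, 12 in all. The deposited values are log2 signals made by the authors with RMA, which corrects background, normalizes between arrays and sums probes, per the submitters' processing notes; its version is not given in the sources used here. Such values carry no measure of background and no depth, so the number of arrays limits the precision.

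Of 35556 probe sets, 23410 had a gene symbol and were tested, 21789 with 1 symbol, 1621 with several and 12146 with none. A gene was read from its brightest single-symbol probe set. Group means were fitted to all 12 arrays with limma 3.58.1 in R 4.3.3 (lmFit and eBayes, two-sided, 8 residual degrees of freedom), and p-values were Benjamini-Hochberg adjusted over the 23410. The fit was first tested on simulated data for the E2 comparisons only, with 1 spread per probe set for all 4 groups. In the real arrays the median SD was 0.19 in epithelial vehicle and 0.08 in stromal E2 arrays. The simulation did not cover such unequal spreads. Promoters came from RefSeq (GRCm38.p6).

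All members are named. Of each pathway list, up to 4 called genes of smallest p are named per E2 comparison and up to 3 per other comparison, and 3 genes most like Tnf, Il1a and Nfkbie by Pearson r. Named genes of the layer comparisons are counted only. Csf1r and Ptprc were chosen after their values were seen. Members and lists were chosen with earlier results of these data known. Alternatives covered filters, scalings, the prior, array weights, the arrays fitted, blocks and leaving out each array. As a check of the shared replicate numbers, deviations of same-numbered arrays from their group means were correlated. The values were 0.175, 0.137 and 0.125 between the layers under vehicle, so these arrays may be paired. Pairing by replicate number entered only as a block in alternative fits, and the main values come from the fit without pairing. Other pairs of groups held at least 1 negative value, from -0.419 to 0.273.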

Additional observations from a re-analysis of the deposited data

Results flagged for a closer look

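The E2 effect in epithelium minus that in stroma passed limma's interaction test for Il1a, at 2.27 on the log2 scale (adjusted p = 0.0249), and for Nfkbia, at 1.41 (adjusted p = 0.0146). Il1a averaged 10.94 with E2 and 11.77 with vehicle in epithelium, and 7.21 with E2 and 10.31 with vehicle in stroma. Nfkbia averaged 10.95 with E2 and 10.51 with vehicle in epithelium, and 10.30 with E2 and 11.27 with vehicle in stroma. With 1 array left out, the Il1a call was lost in 7 of 12 fits and the Nfkbia call in 2 of 12. The Il1a call was also lost in the limma fit that paired the layers by replicate number (adjusted p = 0.0794). In that fit Il1b passed (adjusted p = 0.0132). Il1a was lost as well with the replicate block of layer and number (adjusted p = 0.0854) and with all probe sets tested (adjusted p = 0.0519).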

How the results depend on the processing

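Of the 9 members, 2 were called for E2 in epithelium, against 1 with all probe sets tested, 0 in the 6 epithelial arrays alone, 1 with the replicate block and 1 with the replicate block of layer and number. For the difference between layers 2 were called, against 1 with all probe sets, 8 with array weights, 1 with the replicate block of layer and number, 7 without both epithelial arrays that stood apart and 6 without epithelial vehicle replicate 3 and E2 replicate 3, both settings chosen after seeing the data. Leaving out each of the 12 arrays in turn gave 1 to 4 members called for E2 in epithelium, 5 to 7 in stroma, 0 to 5 for the difference between layers, 5 to 6 between layers under vehicle and 3 to 6 under E2. In stroma Il1a, Il1b, Tnf, Nfkbia and Nfkbie were called in 25 of 25 settings, and Il1rn (adjusted p = 0.0404), Il6 (0.0457) and Tnfaip3 (0.00583) were added without both arrays that stood apart. The Tnfaip3 difference between layers turned to -0.058 under quantile normalization and -0.023 under 75th percentile centring, was -0.13 without epithelial vehicle replicate 3 and E2 replicate 3, and ran from -0.16 to 0.23 with 1 array left out. Il6 in epithelium turned to 0.28 with array weights, 0.20 without both arrays and 0.39 without epithelial vehicle replicate 3 and E2 replicate 3, and ran from -1.13 to 0.39 with 1 array left out. Il1b passed in the difference between layers without epithelial vehicle replicate 3 (2.21, adjusted p = 0.0335) or stromal vehicle replicate 2 (2.49, adjusted p = 0.00556), and Il1rn (0.0287), Nfkbie (0.0421) and Nfkbiz (0.0304) did without epithelial E2 replicate 3. The causes were not tested. The block that paired the layers by replicate number, fitted under both treatments, changed no member call between layers under vehicle but that of Il6. Under E2 it added Il1rn (adjusted p = 0.0469) and lost Nfkbie (adjusted p = 0.0608). For the difference between layers it lost Il1a and added Il1b.

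Over all probe sets, calls for E2 in epithelium numbered 678, against 4706 with array weights, 49 in 6 arrays, 1044 under quantile normalization, 438 with the replicate block of layer and number, 3441 without both arrays, and 219 to 1634 with 1 array left out. In stroma 820 became 4503 with array weights, 2142 in 6 arrays, 2269 without both arrays and 413 to 1342. For the difference between layers 213 became 4488 with array weights, 128 with all probe sets, 126 with the replicate block of layer and number, 2664 without both arrays and 81 to 725. Between layers, 5001 under vehicle and 3184 under E2 became 9867 and 11798 with array weights, and 11147 and 4673 without both arrays, with 3385 to 7197 and 1953 to 4636 when 1 array was left out. Of the 96 pathway genes, the 5 called in epithelium and 21 in stroma became 36 and 47 with array weights, 0 and 34 in 6 arrays, and 23 and 35 without both arrays, with 3 to 15 and 13 to 26 when 1 array was left out. Without epithelial vehicle replicate 3 and E2 replicate 3 they were 22 and 25, and all calls for E2 were 2534 in epithelium, 1325 in stroma and 1506 for the difference between layers.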

Other observations

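Markers of further cell types were read in the same arrays. Of 6 smooth muscle markers the contractile gene Actg2 fell with E2 in epithelium, as 1.12% of all probe sets did, and Cnn1 rose in stroma, as 1.52% did. List medians were -0.24 in epithelium and 0.21 in stroma. Of 7 endothelial markers 4 were on the higher and 3 on the lower side in epithelium (median 0.01), and 3 and 4 in stroma (median -0.03). The VEGF receptor gene Kdr rose in epithelium (1.33), as 1.77% of all probe sets did. There the cadherin gene Cdh5 differed by -0.81 and Emcn by -0.91 without passing. Cdh5 fell in stroma (-1.50), as 1.98% of all probe sets did. Of 4 mesothelial markers Msln fell in epithelium (-1.32), while Upk3b differed by 0.12 and Wt1 by 0.19 without passing. Lrrn4 averaged 8.51 with E2 and 8.81 with vehicle there, also without passing, and the list median was -0.09. In epithelium 3 of the 4 were higher than in stroma under both treatments, against 7.27% of all probe sets under vehicle and 4.43% under E2. These genes were chosen after their values were seen.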
